A study of Mus musculus with 8 samples.

Results

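A set of 10 chromatin and transcription regulators with a strong human genetic link to autism was followed in embryonic mouse brain: Adnp, Myt1l, Chd8, Chd2, Arid1b, Ankrd11, Setd5, Pogz, Kdm6b and Asxl3. The genes were chosen by symbol, and their 10 rows were found among the 34866 genes of the deposited table. Gene positions are on GRCm38 from GENCODE M21. All 10 passed the low count filter, which kept 17357 genes.

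RNA was sequenced from the brains of 8 embryos of the Ohia mouse line, a model of hypoplastic left heart syndrome, a heart defect with a small left ventricle. The 3 mutants carried mutant alleles of both Sap130 and Pcdha9 on both chromosomes (m/m). The 5 controls were littermates with 1 mutant allele of each gene (+/m), so mutant alleles were present in every sample and none was wild type. Sap130 codes for a component of SIN3-HDAC, a corepressor that removes acetyl groups from histones, and Pcdha9 for a neuronal adhesion protein of the alpha protocadherin cluster. Both genes differ between the groups in the same direction, so their effects cannot be told apart. At E13.5 there were mutant 260-1 and controls 260-2 and 260-3. At E14.5 there were mutants 195-3 and 303-2 with controls 195-2, 195-6 and 303-3. The numbers are those of the sample titles, and the first of the pair was read as a litter number, which the labels do not define.

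Library totals ran from 36438282 to 47838448 counts, and the least counted member in any library, Asxl3 in mutant 260-1, still had 2375 counts. Levels are given as CPM, the gene's share of the TMM-scaled library as edgeR computes it. Sap130 itself ran from 32.6 to 35.9 CPM in the mutants and from 46.8 to 52.1 CPM in the controls. Mutant 260-1 and control 195-6 stood apart before any test. Their 12 Hox markers of hindbrain and cord summed to 0.339 and 2.74 CPM, against 169 to 349.5 CPM in the other 6 libraries. The 12 telencephalon markers summed to 289 CPM in mutant 195-3 and 766 CPM in mutant 303-2, against 1262 to 1541 CPM in the other 6. In whole tissue fewer cells of a type and less RNA per cell cannot be told apart.

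The 10 proteins act at different steps of the same broad task, which is to open, close or mark chromatin while neurons form. Adnp, Pogz and Myt1l bind DNA or heterochromatin proteins and recruit repressors. Chd8, Chd2 and Arid1b belong to ATP-driven machines that move nucleosomes. Kdm6b and Asxl3 act against Polycomb marks, and Ankrd11 and Setd5 are partners of the HDAC3 corepressor. Loss of 1 copy of several of these genes causes intellectual disability with autism in people, so gene dose is known to matter.

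Promoter windows from RefSeq on GRCm38.p6, each running from 250 bases before to 50 bases after a transcript start, were at hand for 7 of the 10 genes. The 4 shown are those of the genes with the smallest genotype p among the members with a window. Each of these genes was called lower in the mutants in the main comparison described below, and shared control at their promoters was not tested. Capitals mark matches to the GC box GGGCGG or the CCAAT box CCAAT on either strand. Adnp is chr2:168207063-168207362 on the minus strand, Myt1l chr12:29528134-29528433 on the plus strand, Arid1b chr17:4994824-4995123 on the plus strand and Pogz chr3:94837187-94837486 on the plus strand.
Adnp: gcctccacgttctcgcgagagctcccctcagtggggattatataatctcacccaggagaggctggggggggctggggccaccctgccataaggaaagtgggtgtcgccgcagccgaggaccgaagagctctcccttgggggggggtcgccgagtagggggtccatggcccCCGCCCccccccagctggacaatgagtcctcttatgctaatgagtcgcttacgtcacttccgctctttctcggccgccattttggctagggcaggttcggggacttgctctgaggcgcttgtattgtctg
Myt1l: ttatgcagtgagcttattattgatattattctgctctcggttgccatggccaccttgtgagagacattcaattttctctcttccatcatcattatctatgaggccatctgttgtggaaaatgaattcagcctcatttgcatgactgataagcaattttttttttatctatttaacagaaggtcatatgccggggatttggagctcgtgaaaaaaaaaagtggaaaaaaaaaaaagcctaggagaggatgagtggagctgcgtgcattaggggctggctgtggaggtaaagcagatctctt
Arid1b: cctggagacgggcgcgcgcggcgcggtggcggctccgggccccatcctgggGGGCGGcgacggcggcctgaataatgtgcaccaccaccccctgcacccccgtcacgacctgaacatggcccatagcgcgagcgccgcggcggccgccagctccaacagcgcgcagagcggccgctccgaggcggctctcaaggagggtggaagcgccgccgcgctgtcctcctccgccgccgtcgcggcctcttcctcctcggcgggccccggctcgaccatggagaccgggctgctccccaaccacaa
Pogz: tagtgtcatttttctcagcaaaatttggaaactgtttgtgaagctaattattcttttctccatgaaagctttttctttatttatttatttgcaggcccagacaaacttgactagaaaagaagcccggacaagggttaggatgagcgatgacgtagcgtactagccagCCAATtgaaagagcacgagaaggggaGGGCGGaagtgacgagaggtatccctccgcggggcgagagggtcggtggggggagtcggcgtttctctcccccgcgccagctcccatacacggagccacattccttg

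The windows differed widely in CpG content. The Arid1b window held 42 CpG dinucleotides, Adnp 17 and Pogz 16, against a median of 7 over 32851 windows, whereas the Myt1l window shown held 4 and the Setd5 window 1. The Setd5 window, from 113104685 to 113104984, lies inside the gene, which begins at 113077365 in GENCODE. That of Arid1b also lies inside its gene, which begins at 4994332. For these genes the first GENCODE start had no window, so its CpG content is not given. A GC box was found for 6 of the 7 genes and in 35.7% of all windows, and a CCAAT box for 4 of the 7 and in 37.4% of all windows. Myt1l had 5 windows, which gave it more chances of a match. The ETS motif CCGGAAG was found for Chd8 alone (8.86% of all windows). No member window held the NRF1 motif GCATGCGC, the YY1 motif AAGATGGC, the CRE motif TGACGTCA or the TATA motif TATAAA, which 2.71%, 2.75%, 1.79% and 13.6% of all windows held. These are letter matches in a fixed window and say nothing on binding.

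In control brains the members differed several-fold in level per length of transcript. Myt1l was the most abundant at 40.6 ± 6.12 CPM per kb (SD, n = 5). Setd5 followed at 32.3 ± 1.93 CPM per kb, then Ankrd11 at 29.3 ± 2.17 and Adnp at 28.9 ± 2.58 CPM per kb, a pair whose difference was within their spread. Chd8 at 22.2 ± 1.96 and Kdm6b at 21.7 ± 0.928 CPM per kb also lay within their spread of each other. Pogz at 20.3 ± 0.760, Chd2 at 15.0 ± 0.816 and Arid1b at 13.46 ± 1.10 CPM per kb came next, each step larger than 1 SD of either neighbour, and Asxl3 was lowest at 7.33 ± 1.15 CPM per kb. The place of Adnp in this order is uncertain. Its value leaves out the counts given to Gm20716, an entry over most of the same exons. In controls the sum of both averaged 315 CPM, of which Adnp took 45.3%.

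**Figure D1:**
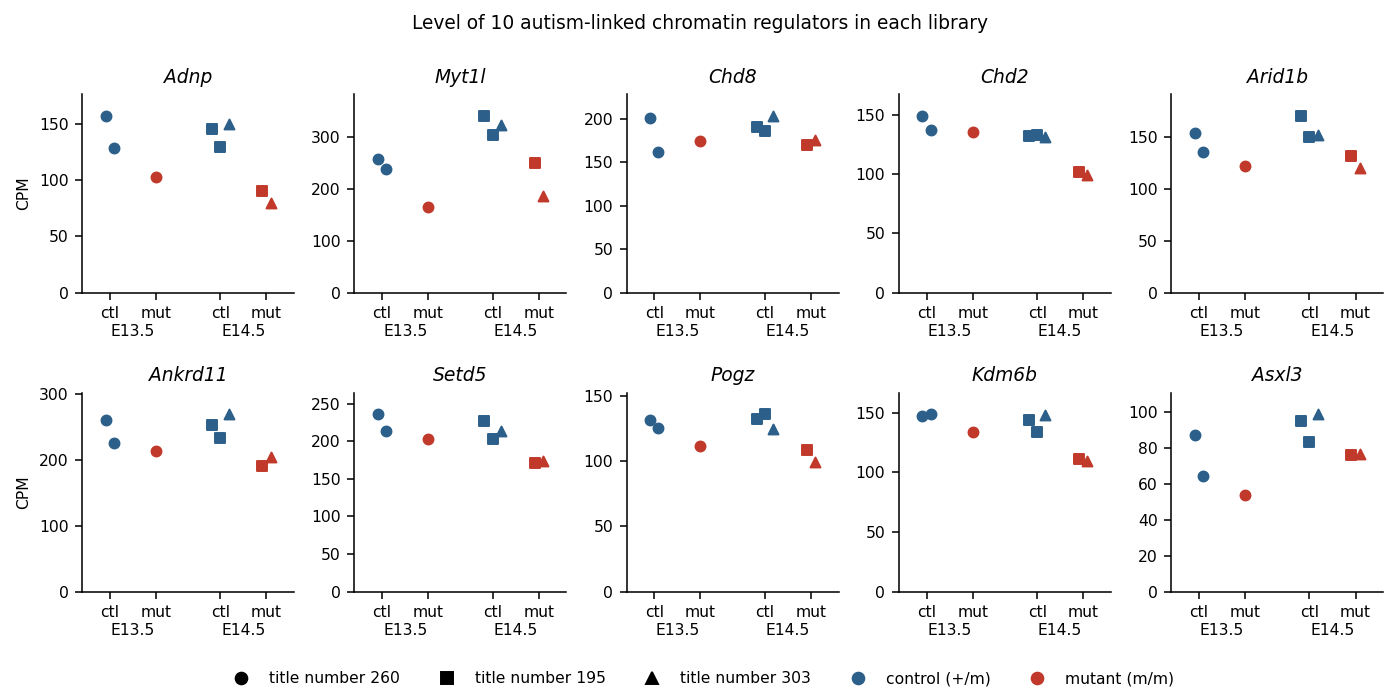
Level of each gene in every library, in CPM on an axis that starts at 0, with controls (blue) and mutants (red) side by side at E13.5 and E14.5; marker shapes give the title number and each point is 1 embryo. At E14.5 both mutants lie below all 3 controls in every panel, while at E13.5 the single mutant lies between its 2 controls for Chd8.

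Against the controls, 9 of the 10 regulators were lower in the mutants and none was higher. Once transcript length and GC content were taken into account, 2 of the 10 were, Adnp and Myt1l. The Adnp call was not made when its counts were summed with those of Gm20716, a gene annotated over most of the same exons. The log2 change of the sum was -0.13 (adjusted p = 0.129), or -0.05 (adjusted p = 0.481) with length and GC, which leaves Myt1l. That sum may also include reads from exons of Dpm1, as described below. The edgeR quasi-likelihood test with stage in the model called a gene at a Benjamini-Hochberg adjusted p under 0.05. Over all genes tested, 9.74% were called lower and 10.9% higher. The median log2 change of the members was -0.29, against -0.00052 over all genes. The genes were chosen with earlier results of these data known, so the count is a description. P-values measure the spread between these embryos. A pair of properties of the data bear on the count and are described after the genes: the members have long transcripts, and long transcripts were lower in the mutants across the whole table.

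Adnp (ENSMUSG00000051149.15, chromosome 2, 168180986 to 168207112), a zinc finger and homeodomain protein that joins CHD4 and HP1 in the ChAHP complex, had the lowest adjusted p. Its levels were 103, 90.2 and 79.5 CPM in mutants 260-1, 195-3 and 303-2. The controls 260-2, 260-3, 195-2, 195-6 and 303-3 had 158, 129, 146, 130 and 150 CPM. No mutant reached the lowest control. The log2 change was -0.64 (SE 0.10, adjusted p = 0.00405), which left the mutant mean at 63.9% of the control mean.

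Myt1l (ENSMUSG00000061911.15, chromosome 12, 29528384 to 29923213), a zinc finger repressor of neurons that holds down non-neuronal genes, was measured at 164, 249.9 and 187 CPM in the mutants, in the same order. The controls had 257, 237, 341, 304 and 323 CPM. Mutant 195-3 lay above control 260-3, so the groups overlapped across stages, but within each stage every mutant was below every control. Myt1l changed by -0.57 on the log2 scale (SE 0.09, adjusted p = 0.00548). Summed neuron markers did not separate the groups in the same way. The 13 neuron markers summed to 6790 CPM in mutant 260-1, the lowest of all libraries, and to 9022 and 8268 CPM in mutants 195-3 and 303-2, against 7865 to 8959 CPM in controls. Of those markers 1 was called higher and 3 lower, and of 10 progenitor markers 4 were called higher. Their part in the Myt1l result was not tested.

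Pogz (ENSMUSG00000038902.14, chromosome 3, 94837567 to 94882326), which is built from zinc fingers and a transposase-derived domain and binds HP1, was at 112, 109 and 99.3 CPM in the mutants. Its controls, at 132, 125, 132, 136 and 125 CPM, were tightly grouped and all higher. The change was -0.28 (SE 0.06, adjusted p = 0.0153).

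Among the remodelling enzymes, Chd8 and Chd2 behaved differently from each other in the test, though the difference between them was not itself tested. Chd8 (ENSMUSG00000053754.14, chromosome 14, 52198151 to 52257780), a chromodomain helicase and one of the genes most often mutated in autism, was nearly constant in the mutants at 174, 169.8 and 176 CPM. Its controls spread more widely, at 201, 162, 190.1, 186 and 204 CPM, and control 260-3 was the lowest library of all. The Chd8 difference of -0.12 (SE 0.08, adjusted p = 0.274) was not called.

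Chd2 (ENSMUSG00000078671.11, chromosome 7, 73426638 to 73541830), a related helicase whose loss causes epilepsy in people, was at 135 CPM in mutant 260-1 and at 102 and 98.9 CPM in the E14.5 mutants. Controls had 149, 137, 132, 133 and 131 CPM. The E13.5 mutant lay just under its 2 littermates and above all 3 E14.5 controls, so the groups overlapped across stages. Chd2 changed by -0.28 (SE 0.07, adjusted p = 0.0263).

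Arid1b (ENSMUSG00000069729.13, chromosome 17, 4994332 to 5347656), a DNA-binding subunit of the BAF (SWI/SNF) remodeller, had 122, 131 and 121 CPM in the mutants. It had 154, 136, 171, 149.7 and 152 CPM in the controls. The groups did not overlap, although control 260-3 came close to mutant 195-3. Arid1b changed by -0.30 (SE 0.07, adjusted p = 0.0210).

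Ankrd11 (ENSMUSG00000035569.17, chromosome 8, 122883822 to 123042277), an ankyrin repeat protein that binds HDAC3 and is mutated in KBG syndrome, ran at 213, 191 and 204 CPM in mutants. Controls had 260.1, 225, 253, 233 and 269 CPM. All mutants were below all controls, and the change was -0.29 (SE 0.08, adjusted p = 0.0270).

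Setd5 (ENSMUSG00000034269.12, chromosome 6, 113077365 to 113153435), a SET domain protein found with the NCoR and HDAC3 corepressor, was at 203, 171 and 173 CPM in the mutants and at 236, 213, 227, 202.5 and 213 CPM in the controls. Mutant 260-1 was level with control 195-6, and the E14.5 mutants were clearly lower than the rest. The Setd5 change was -0.25 (SE 0.07, adjusted p = 0.0287).

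Kdm6b (ENSMUSG00000018476.7, chromosome 11, 69398508 to 69413675), a demethylase that removes the repressive methyl mark laid on histone H3 by Polycomb, had 134, 111 and 109 CPM in the mutants. Its controls had 147, 148, 144, 134 and 148 CPM. Mutant 260-1 and control 195-6, the libraries with almost no Hox RNA, were nearly equal, and the other 2 mutants lay well below. Kdm6b changed by -0.28 (SE 0.07, adjusted p = 0.0175).

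Asxl3 (ENSMUSG00000045215.16, chromosome 18, 22344883 to 22530227), a scaffold of the PR-DUB enzyme that takes ubiquitin off histone H2A, was at 53.7, 75.9 and 76.6 CPM in the mutants. The controls were at 87.2, 64.4, 94.9, 83.2 and 98.8 CPM. Control 260-3 fell below the 2 E14.5 mutants, and the change was -0.35 (SE 0.11, adjusted p = 0.0408).

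In 5 of the 10 genes (Adnp, Arid1b, Ankrd11, Pogz and Kdm6b) all 3 mutants lay below all 5 controls, as did 8.61% of all genes tested. At E14.5 both mutants lay below all 3 controls for 10 of 10 members, against 23.4% of all genes. These are the 2 mutants with the low telencephalon marker sums, whose part in the result was not tested. At E13.5 the mutant lay below both controls for 9 of 10, against 39.1% of all genes. Mutant 303-2 had the lowest level in 5 members, mutants 260-1 and 195-3 in 2 each, and control 260-3 in 1.

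**Figure D2:**
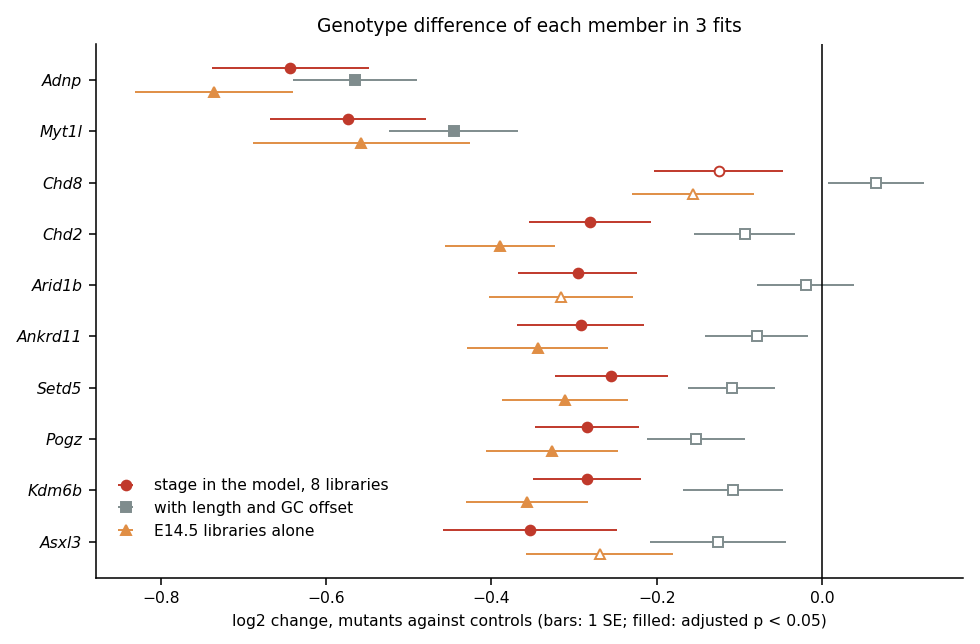
Log2 change of mutants against controls for each gene with its standard error, in 3 fits: all 8 libraries with stage in the model, the same with a length and GC offset, and the E14.5 libraries alone; filled symbols passed the threshold. With length and GC in the fit, every gene moves up and Chd8 crosses to 0.07, while Adnp and Myt1l stay lowest at -0.57 and -0.45.

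Length set these genes apart from most of the table. The members' transcripts were 4932 bases (Adnp) to 11697 bases (Asxl3) long, with a median of 7828 bases against 3027 bases over all genes tested. Cutting all genes into deciles by transcript length put 8 members in the longest decile, Pogz in the ninth and Adnp in the eighth. The median log2 change between mutants and controls ran from 0.21 in the shortest decile to -0.18 in the longest. In the longest decile 26% of genes were called lower and 0.983% higher. Of the 8 members in that decile, 7 were called lower. Chd8 was 0.05 above the decile's median log2 change, and the other 7 were between 0.08 (Setd5) and 0.39 (Myt1l) below it. Pogz was 0.19 and Adnp 0.60 below the medians of their own deciles.

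A gradient with length was also present between control embryos of 1 title number, where no genotype differed. The order of subtraction within a pair is arbitrary, and swapping it would turn every sign, so the size and not the direction of these differences is the measurement. Control 260-3 minus control 260-2 ran from a median of 0.16 in the shortest decile to -0.16 in the longest, and control 195-6 minus control 195-2 from 0.12 to -0.13. The members went with the long genes in both pairs. They were lower in control 260-3 than in 260-2 in 9 of 10 cases, with a median difference of -0.16, where 49.1% of all genes were lower. In control 195-6 against 195-2 they were lower in 8 of 10, with a median of -0.14, where 51.3% of all genes were lower. Asxl3 differed by -0.44 and Chd8 by -0.31 between the 260 controls, which for Chd8 exceeded its difference between mutant and controls in each of the 3 title numbers.

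**Figure D3:**
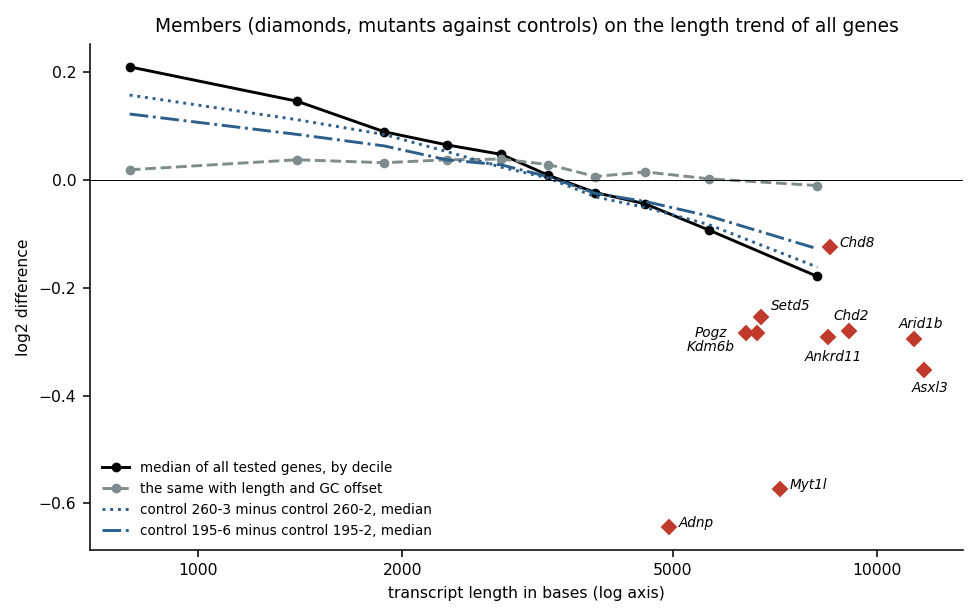
Median log2 change of all tested genes by decile of transcript length, for mutants against controls without and with the length and GC offset and for the 2 pairs of controls, with the 10 members as diamonds at their own length (log axis) and log2 change. The mutant line and both control lines all change with length, and the offset line stays near 0. The direction of the control lines is set by the order of subtraction. All lines end at the median length of the longest decile, 8167 bases, and several members are longer than that. Against the median of their own decile 9 of the 10 members were lower, with Adnp and Myt1l farthest below.

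When transcript length and GC content were modelled as a smooth offset in each library, 2 of the 10 members were called lower, Adnp at -0.57 (SE 0.07, adjusted p = 0.00371) and Myt1l at -0.45 (SE 0.08, adjusted p = 0.00792). In that fit 7.41% of all genes were called lower and 11% higher. The members' median moved to -0.11, against 0.02 over all genes. Pogz stood at -0.15 (adjusted p = 0.100), Asxl3 at -0.13 (adjusted p = 0.301), Setd5 and Kdm6b at -0.11 (adjusted p = 0.171 and 0.230), and Chd2 at -0.09 (adjusted p = 0.304). Ankrd11 at -0.08 and Arid1b at -0.02 were closest to no difference on the negative side, and Chd8 was at 0.07. The direction of Chd8 thus depended on this choice. Whether the length gradient comes from the RNA, the libraries or the embryos was not tested.

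Within each title number all 10 members were below the mean of their controls, as were 48.7% of all genes in 260, 50.6% in 195 and 49.4% in 303. Over all genes 25.2% were below in all 3 numbers. The mutant minus the mean of its controls on the log2 CPM scale had a median of -0.19 over the members in 260, -0.32 in 195 and -0.38 in 303. Over the longest decile of all genes the medians were -0.13, -0.15 and -0.27. Adnp was below its controls by 0.46, 0.61 and 0.91 and Myt1l by 0.59, 0.37 and 0.79, in the order 260, 195 and 303. Chd2 was 0.08 below in 260 and 0.38 and 0.41 below in the other two. The differences between the 2 controls of a number varied by gene beside these. For Setd5 they were -0.14 in 260 and -0.16 in 195, beside mutant differences of -0.14 and -0.33. For Pogz they were -0.07 and 0.04, beside -0.20 and -0.30, and for Kdm6b 0.01 and -0.10, beside -0.15 and -0.32.

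**Figure D4:**
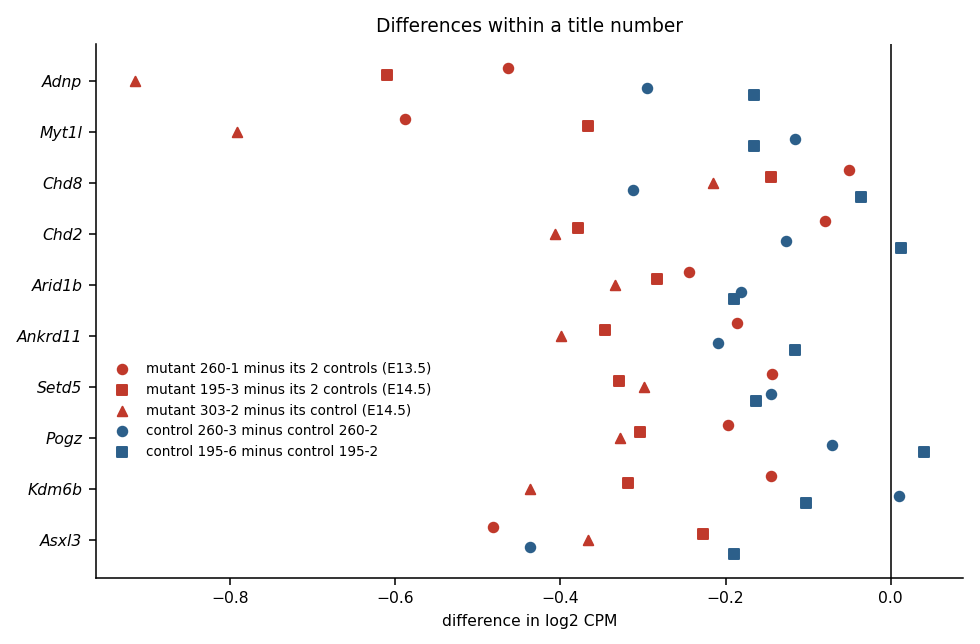
Differences in log2 CPM within a title number for each gene, with mutants minus their controls in red and 1 control minus the other, in an arbitrary order, in blue. Every red point is below 0, from -0.05 for Chd8 in 260 to -0.91 for Adnp in 303, and the blue points are below 0 for 9 of 10 genes in 260 and 8 of 10 in 195.

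Most members lost their call in some fits that left out 1 library, while all their log2 changes stayed negative. Chd2 ran from -0.25 to -0.39 over these fits, Asxl3 from -0.27 to -0.41 and Myt1l from -0.48 to -0.72. Adnp and Myt1l were called in all 8 fits that left out 1 library. Pogz was called in 6, Arid1b and Kdm6b in 5, Chd2, Ankrd11, Setd5 and Asxl3 in 4, and Chd8 in 0. Without mutant 303-2, or without control 195-2, 2 members were called, where 4.14% and 3.98% of all genes were called lower. Without controls 260-2 and 303-3, left out singly, 5 and 4 were, where 5.57% and 4.67% of all genes were. Without mutant 303-2, Ankrd11 stood at -0.31 (adjusted p = 0.0720), Asxl3 at -0.39 (adjusted p = 0.0947) and Setd5 at -0.25 (adjusted p = 0.0886). These values were about as in all 8 libraries or larger in size. The other members that lost their call there had smaller differences than in all 8 libraries. Chd2 went from -0.28 to -0.25, Arid1b from -0.30 to -0.27, Pogz from -0.28 to -0.25 and Kdm6b from -0.28 to -0.27. In the E14.5 samples alone 7 members were called lower, Arid1b (adjusted p = 0.0643), Asxl3 (adjusted p = 0.0985) and Chd8 (adjusted p = 0.208) being the exceptions, against 4.32% of all genes. Without the 2 libraries that lacked Hox RNA 6 were called, against 5.65% of all genes. Adnp then stood at -0.80 and Myt1l at -0.61, so neither difference was smaller without those libraries.

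The Adnp value carries a limit of its own, found after its values were seen. Gm20716 (ENSMUSG00000093752.1) is annotated on the same strand of chromosome 2, from 168180986 to 168230364, and joins exons of Dpm1, the neighbouring gene, to the last exons of Adnp. On GRCm38 with GENCODE M21, 4393 of the 5350 exon bases of Adnp (82.1%) also belong to Gm20716. The 957 bases that are Adnp's alone lie between 168204357 and 168207112, at its 5' end. Reads from the shared exons had to be divided between the 2 entries, and the rule for doing so is not known from these files. Gm20716 also shares 895 exon bases with Dpm1 and has 0 outside both genes. Its counts, and so the sum with Adnp, may therefore include Dpm1 reads.

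Gm20716 was at 204, 189 and 193 CPM in mutants 260-1, 195-3 and 303-2. In controls 260-2, 260-3, 195-2, 195-6 and 303-3 it was at 169, 189, 168, 188 and 147 CPM. The groups overlapped, and the log2 change of 0.19 (adjusted p = 0.126) was not called. Adnp took 33.7%, 32.3% and 29.1% of the sum of both entries in the mutants and 48.3%, 40.4%, 46.5%, 40.9% and 50.5% in the controls. The means were 31.7% ± 2.33 (SD, n = 3) and 45.3% ± 4.47 (SD, n = 5; exact permutation test, two-sided p = 0.0179, the smallest this design allows). The sum itself averaged 315 ± 11.1 CPM in controls against 286 ± 18.2 CPM in mutants (exact permutation test, two-sided p = 0.0357), a log2 change of -0.13 (SE 0.06, adjusted p = 0.129) that was not called. Both permutation tests left stage out. The share was tested after Adnp itself was seen to separate the groups, so its p-value is a description. With length and GC in the fit the sum changed by -0.05 (adjusted p = 0.481). Adnp was thus called where the sum of both entries was not, and the share also differed between controls of 1 title number. With the sum in place of Adnp, 8 members were called in the fit with stage and Myt1l alone (1) with length and GC as well.

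**Figure D5:**
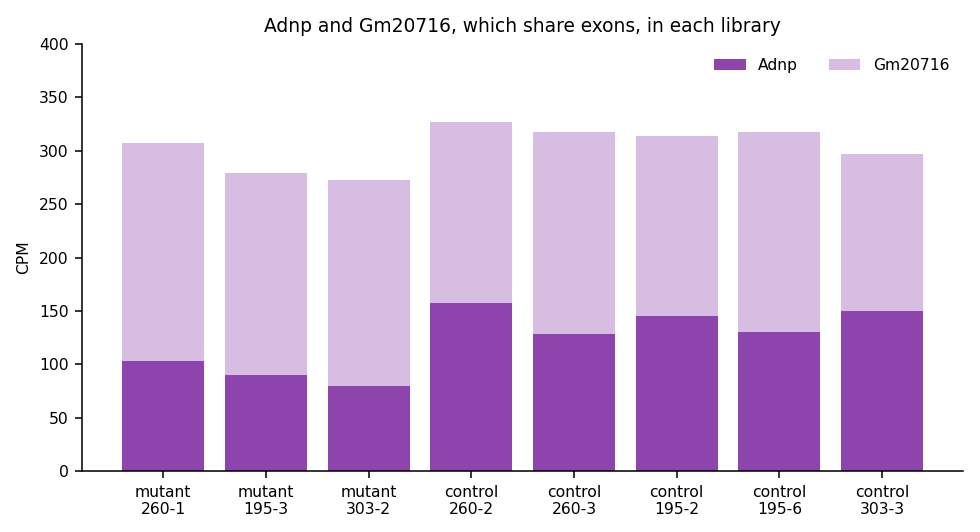
Stacked bars of Adnp (dark) and Gm20716 (light) in every library, in CPM from 0; the height of a bar is their sum. The Adnp part is shortest in the 3 mutants, at 79.5 to 103 CPM, while the sums, at 273 to 307 CPM in mutants and 297 to 327 CPM in controls, overlap.

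The stage comparison sets the embryos of 1 title number at E13.5 against those of 2 others at E14.5, so stage and litter cannot be told apart. None of the 10 members was called (0 in edgeR, with 3 at an unadjusted p under 0.05), while 2.24% of all genes were called higher and 1.01% lower at E14.5. Myt1l had the largest difference. It averaged 247 CPM in the 2 E13.5 controls and 323 ± 18.6 CPM (SD, n = 3) in the E14.5 controls, a log2 change of 0.39 over all samples (SE 0.09, adjusted p = 0.0518). In the controls alone the same difference, 0.39, passed the threshold (adjusted p = 0.0244). Asxl3 was at 0.36 (adjusted p = 0.0769) and Chd2 at -0.23 (adjusted p = 0.0950). DESeq2 called these 3 genes, and the fit with length and GC called Myt1l higher at 0.34 (adjusted p = 0.0412) and Chd2 and Kdm6b lower at -0.31 and -0.26 (adjusted p = 0.0309 and 0.0423). No share of all genes called for stage is given for those fits, so their calls cannot be read against one. The other members ranged from -0.14 (Kdm6b) to 0.09 (Arid1b) in the main comparison. Across all genes the median stage change also went with length, from -0.07 in the shortest decile to 0.08 in the longest.

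No member's genotype difference was shown to depend on stage. The interaction term called 0 members in edgeR and 0 in DESeq2, with 1 at an unadjusted p under 0.05 in each, and 18 genes (0.104%) over the whole table. The one was Chd2, whose genotype difference was 0.31 lower on the log2 scale at E14.5 than at E13.5 (SE 0.12, adjusted p = 0.473). With a single E13.5 mutant the term is imprecise, and its SE ran from 0.12 for Chd2 to 0.21 for Asxl3. Chd2 did not stand out once length and GC were in the fit. Its term was then -0.22, and those of Kdm6b at -0.27 and Asxl3 at 0.33 were larger in size.

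The partners and relatives of these regulators gave a wider view. Of 106 further genes in 7 lists, each counted once, 21 were called lower and 4 higher, with a median log2 change of -0.09, where 9.74% of all genes were lower and 10.9% higher. With length and GC in the fit 6 were lower and 4 higher, with a median of 0.02, where the shares of all genes were 7.41% and 11%. None of the lists was longer than the members in median transcript except the paralogs, at 8052 bases.

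Of 18 paralogs of the members, 3 were lower and 1 was higher. Chd3, a helicase of the NuRD corepressor, averaged 794 ± 45.1 CPM in controls against 513 ± 16.9 CPM in mutants, a change of -0.63 (adjusted p = 0.00175). Chd5, the neuronal member of that group, changed by -0.73 (adjusted p = 0.00826), and both were still called with length and GC in the fit, at -0.45 and -0.49. Kmt2e, the closest relative of Setd5, changed by -0.30 (adjusted p = 0.0376) and was not called there (adjusted p = 0.0542). St18, a relative of Myt1l, moved the other way, from 28.0 ± 5.76 CPM in controls to 42.1 ± 10.5 CPM in mutants (a difference of 0.61 on the log2 scale, adjusted p = 0.00890).

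Of 40 other chromatin and transcription genes linked to autism, 15 were lower and 1 was higher, with a median of -0.22 and a median transcript of 7262 bases. Kmt2a, a histone H3 methyltransferase, changed by -0.48 (adjusted p = 0.0101), the transcription factor Foxp1 by -0.41 (adjusted p = 0.0119) and the corepressor Rere by -0.28 (adjusted p = 0.0133). With length and GC in the fit 2 of the 40 were lower, Foxp1 among them at -0.31 (adjusted p = 0.0178), and Kmt2a stood at -0.13. The gene that was higher was Sin3a, the scaffold of the complex that holds Sap130, which averaged 83.2 ± 5.55 CPM in controls against 114 ± 17.5 CPM in mutants (a difference of 0.46 on the log2 scale, adjusted p = 0.00360; 0.55 with length and GC).

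The lists of complexes are small, and their counts are to be read against the shares over all genes, 9.74% lower and 10.9% higher. Of 24 BAF subunits besides Arid1b, 1 was lower (Smarca2, an ATPase, at -0.27, adjusted p = 0.0328) and 1 higher (Ss18 at 0.26, adjusted p = 0.0455). Neither was called with length and GC in the fit (adjusted p = 0.204 and 0.0623), where Smarcd3 was lower and Dpf2 higher instead, 2 genes named after their values were seen. None of the 5 ChAHP and HP1 genes tested beside Adnp was called (0 in each direction), Chd4 standing at -0.13 (adjusted p = 0.160). Of 10 PR-DUB genes and partners 1 was higher, Kdm1b, a histone H3 demethylase, at 0.29 (adjusted p = 0.0141). Of 11 genes of Polycomb repressive complex PRC2, 1 was lower, Phf19 at -0.78 (adjusted p = 0.0451), from a level of only 5.20 ± 0.433 CPM in controls; it was not called with length and GC in the fit (adjusted p = 0.0707). Of 6 NCoR and HDAC3 genes 2 were lower. Ncor1, a corepressor scaffold, changed by -0.28 (adjusted p = 0.0361) and stood at -0.08 (adjusted p = 0.314) with length and GC in the fit.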

How the data were processed

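Total RNA of 8 embryonic brains went into TruSeq RNA v2 libraries, per the labels' protocols. The kit enriches poly(A) RNA without keeping strand, so antisense partners of Myt1l, Chd8, Chd2, Ankrd11 and Kdm6b cannot be separated from them. Chd2 also shares 2628 of its 14300 exon bases (18.4%) with 1810026B05Rik, a same-strand gene that was not among those counted. The deposited table holds expected counts per gene, not normalised, and the origin of their fractional values is not stated. Per the submitters' processing notes, TopHat2 2.0.9, HTSeq 0.5.4p5 and edgeR 3.4.2 were used with mm10 and GRCm38, in roles not stated. Identifiers were matched to GENCODE M21 without version for 34652 of 34866 genes.

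Expected counts were rounded and tested in R 4.3.3 with edgeR 4.0.16 (filterByExpr with a minimum count of 10, TMM factors, robust quasi-likelihood F test, stage and genotype in the model, Benjamini-Hochberg over 17357 genes, threshold 0.05). The common biological coefficient of variation was 14.27%. The length and GC offset is a smooth on transcript length and GC content, fitted in each library (mgcv 1.9.3). The smoothed value was each gene's log2 CPM minus its mean over all libraries. A prior count of 2 was added for log2 CPM. DESeq2 1.42.0, RLE and upper quartile factors, no low count filter, no stage term, E14.5 alone, controls alone for stage, and leaving out single libraries were alternatives. The scripts' calls were tested on simulated counts, with the outcome not given here. Those counts held no length gradient and no stage or litter effect, so the test does not bear on these. The members, lists and tests were chosen with earlier results of these data known. Named genes are all members, Sap130, and up to 3 called genes per direction and list with the smallest p, of which 1 is not reported here; Gm20716 and the sum with Adnp were added after values were seen, and Chd4 was named after its value was seen. The 8 marker lists also covered blood, endothelium, microglia and mesenchyme, whose summed CPM in mutants and controls ran from 1086 to 2417 and 1075 to 1661, 197 to 281 and 202 to 245, 42.0 to 73.8 and 52.1 to 60.4, and 531 to 927 and 466 to 716; no list had a gene at 0 in all libraries.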

Additional observations from a re-analysis of the deposited data

How the results depend on the processing

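The 9 member calls and 25 calls in the context lists were 9 and 25 to 35 under RLE factors, upper quartile factors, DESeq2 and a dispersion fit that was not robust, and 9 and 24 without the low count filter. Without the stage term they were 3 and 10. Those 3 members were Adnp, Ankrd11 and Pogz, while Myt1l stood at -0.55 and was not called (adjusted p = 0.0651). With the length and GC offset the counts were 2 and 10, and with Adnp and Gm20716 summed under that offset 1 and 10. Leaving out 1 library gave 2 to 9 and 12 to 32. Chd8 changed sign under the offset, to 0.0650 alone and 0.0649 with the sum. The stage calls, 0 in all, were 1 without the low count filter, 3 with DESeq2, 3 with the offset, 3 with the offset and the sum, 1 in controls alone and 0 to 2 when 1 library was left out. Stage values near 0 changed sign: with the offset Chd8 to -0.0339 and Arid1b to -0.0514 (-0.03393 and -0.05134 with the sum); without mutant 260-1 and control 195-6 Adnp to 0.0462 and Ankrd11 to 0.103; in controls alone Ankrd11 to 0.0522 and Pogz to 0.0283. Leaving out 1 library put Ankrd11 between -0.0717 and 0.0427, Pogz between -0.0488 and 0.0187 and Chd8 between -0.0313 and 0.110. The cause of these changes was not tested. Several of the counts above have no share of all genes called to be read against. They include those without the stage term and the stage calls outside the main fit.

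The title number as a replicate block gave 7 members and 20 context genes; Setd5 (adjusted p = 0.0508) and Asxl3 (adjusted p = 0.0553) passed no longer. The block with the offset gave 2 members and 13 context genes, with Chd8 at 0.0579. No share of all genes called is given for either block fit, so their counts cannot be read against one. Deviations from the mean of each genotype group, with stage not taken out, were compared between mutants and controls across genes. With the same number they correlated by 0.20 in 260, 0.03 in 195 and 0.15 in 303. Number 260 was the only one at E13.5, so stage and litter cannot be told apart in its value. Mutant 195-3 correlated most with control 303-3, at 0.23, and the numbers were not treated as pairing the samples. Every member had at least 2375 counts in each library, and the groups of 3 and 5 embryos limit the precision.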
